A study of Mus musculus with 2 samples.

Results

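This report describes 8 genes that mark lipid-associated macrophages, Trem2, Gpnmb, Fabp5, Cd9, Cd63, Lgals3, Apoe and Lpl, in CD45+ cells of mouse skin. They are 8 of the 32285 genes of the count matrix. They were chosen by name, not by a threshold on measured values, and were followed in each cell class beside Spp1, which encodes osteopontin, a secreted phosphoprotein, and stands in the study's title. One group was skin taken at day 2 of treatment with DPCP, the usual short name of the contact sensitiser diphenylcyclopropenone. The other was control skin at day 0. Both came from full-thickness skin digested with Liberase TM and sorted for CD45, and both were tagged and run as a single 10x Genomics 3′ single-cell pool. There was 1 tagged sample in each condition, so cells were not replicates, no p-value could be had, and animal, tag and treatment cannot be told apart. The strain, sex and age of the mice and the number of mice behind each tag are not given in the sources used here.

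Lipid-associated macrophages are phagocytes that take up lipoproteins, dying cells and their membranes, and process the lipid in lysosomes. Trem2 is a surface receptor that binds lipids and lipoproteins and signals through the adaptor Tyrobp, and it is known from fat, atherosclerotic plaque and brain microglia as a regulator of this state. The other genes listed act downstream or beside it: in uptake and transport of fatty acids (Lpl, Fabp5), in lipid export (Apoe), and in lysosomes and membranes (Gpnmb, Cd63, Cd9, Lgals3). In skin, Apoe, Lgals3 and Cd9 are also made by cells outside the macrophage lineage.

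After filtering, 7588 DPCP cells with a median of 4728.5 unique molecular identifiers (UMIs, one per captured RNA molecule) and 4967 control cells with a median of 8797 were used. The conditions shared 0 barcode sequences. Cells were assigned by marker genes, and 9 classes held at least 50 cells in each condition. Macrophage-like cells, gated on C1qa, C1qb, C1qc, Mrc1 and other markers, numbered 354 in DPCP skin and 516 in control skin, and all 9 of their 9 markers were at least 2-fold above the rest of the cells. Langerhans cell-like cells numbered 68 in DPCP and 54 in control skin, and neutrophil-like cells 4837 in DPCP and 143 in control skin. A large group high in Retnla and Ear2 was given no cell type name and is called Retnla/Ear2-high phagocytes (364 DPCP and 2515 control cells). Of the 354 macrophage-like DPCP cells, 48 fell into the Langerhans cell-like cluster when the cells were clustered without the 8 genes and Spp1, against 1 of 516 control cells, so the macrophage-like class is given below with and without them. Levels are UMIs of the gene per 1000000 UMIs of the class (CPM), a ratio is DPCP over control, and brackets hold exact 95% intervals, which cover counting error only.

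The 8 genes lie on 7 chromosomes in the mm10 annotation of the files. Trem2 (ENSMUSG00000023992) is at chr17:48346401-48354147 and Gpnmb (ENSMUSG00000029816) at chr6:49036546-49070929. Fabp5 is at chr3:10012548-10016607, Cd9 at chr6:125460266-125494791 on the minus strand, and Cd63 at chr10:128900989-128912822. Lgals3 is at chr14:47367751-47386160, Apoe at chr7:19696109-19699188 on the minus strand, and Lpl at chr8:68880491-68907448. Promoters from RefSeq (GRCm38.p6, 250 bases before to 50 after each start) were matched for Trem2, Gpnmb, Cd9, Cd63, Lgals3, Apoe and Spp1, and not for Fabp5 and Lpl. The 250 bases upstream of Trem2 and Gpnmb are printed because the levels of these 2 lead genes parted in DPCP macrophage-like cells, and those of Spp1 for comparison with Gpnmb. All 3 are on the plus strand and are written 5′ to 3′ in lower case, with the searched motif in capitals.
Trem2 promoter, chr17:48346151-48346400: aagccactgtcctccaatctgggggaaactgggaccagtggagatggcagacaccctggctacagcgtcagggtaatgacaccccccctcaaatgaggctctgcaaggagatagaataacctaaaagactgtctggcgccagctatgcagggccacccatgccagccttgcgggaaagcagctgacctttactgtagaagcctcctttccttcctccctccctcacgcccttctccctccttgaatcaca
Gpnmb promoter, chr6:49036268-49036517: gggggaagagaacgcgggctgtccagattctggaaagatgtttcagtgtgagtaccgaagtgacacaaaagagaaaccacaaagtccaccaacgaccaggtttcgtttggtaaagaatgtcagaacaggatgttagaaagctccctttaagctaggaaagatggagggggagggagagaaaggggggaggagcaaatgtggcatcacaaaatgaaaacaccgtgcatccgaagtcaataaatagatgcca
Spp1 promoter, chr5:104434861-104435110: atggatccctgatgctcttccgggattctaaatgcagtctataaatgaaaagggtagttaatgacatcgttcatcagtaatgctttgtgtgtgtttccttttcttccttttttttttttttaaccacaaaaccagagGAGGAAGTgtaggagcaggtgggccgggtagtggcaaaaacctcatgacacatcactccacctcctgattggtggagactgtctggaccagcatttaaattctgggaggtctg
Gpnmb start, chr6:49036515-49036543: ccaggggcaagTGACTCAtgagcacgagt

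Both strands of each 300-base window were searched for 5 motifs. TGACTCA, which binds AP-1, was found at Gpnmb, at bases 9 to 15 after the start, as the capitals in the last line above show, and in 5.20% of the 32851 promoters searched. GAGGAAGT, which binds the macrophage factor PU.1, was found at Spp1 and in 3.20% of all promoters. The other 3 motifs matched none of the promoters of the genes here. They were CACGTG, an E-box held by 7.15% of all promoters, its relative TCATGTG, bound by Mitf family factors and held by 3.77%, and the nuclear receptor direct repeat with a spacer of 1 base, held by 0.0761%. The Trem2 window held none of the 5. These letters describe the windows and do not mark a bound site.

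Trem2 was found mainly in macrophage-like and monocyte-like cells, and in macrophage-like cells its level differed by less than 1.5-fold between the conditions. It stood at 83.0 (74.2 to 92.6) CPM in DPCP macrophage-like cells, against 102 (92.8 to 111) CPM in control macrophage-like cells, a ratio of 0.818 (0.709 to 0.943). After each cell was thinned to 1000 UMIs, 8.83% of DPCP and 8.20% of control macrophage-like cells held a Trem2 UMI (3 DPCP and 4 control cells were too shallow). The direction depended on how the class was drawn and scaled, with a log2 ratio of -0.29 here, 0.66 with classes taken from clusters and 0.10 in thinned cells. Monocyte-like cells came next, with 54.6 (50.5 to 59.0) CPM in DPCP skin and 32.6 (27.2 to 38.8) CPM in control skin. The order macrophage-like, monocyte-like, Retnla/Ear2-high held in DPCP skin with intervals that did not overlap. In the Retnla/Ear2-high phagocytes Trem2 was 18.9 (14.6 to 24.0) CPM in DPCP skin, against 3.14 (2.55 to 3.82) CPM in control skin, a ratio of 6.02 (4.34 to 8.31). T cell-like cells, which should lack the gene, had 7.28 (3.33 to 13.8) CPM in DPCP skin and 0 CPM in control skin, and no thinned T cell-like cell of either condition held a UMI (median depth 8354 DPCP and 7397 control UMIs, against 9901.5 and 7770.5 in macrophage-like cells). The dendritic, Langerhans cell-like, neutrophil-like and epidermal γδ T cell-like classes lay between 0 and 7.99 CPM, near this background, and the order among them is not resolved. Neutrophil-like cells had 4.81 CPM in DPCP skin, against 2.39 CPM from 1 UMI in control skin, so no direction can be read.

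**Figure D1:**
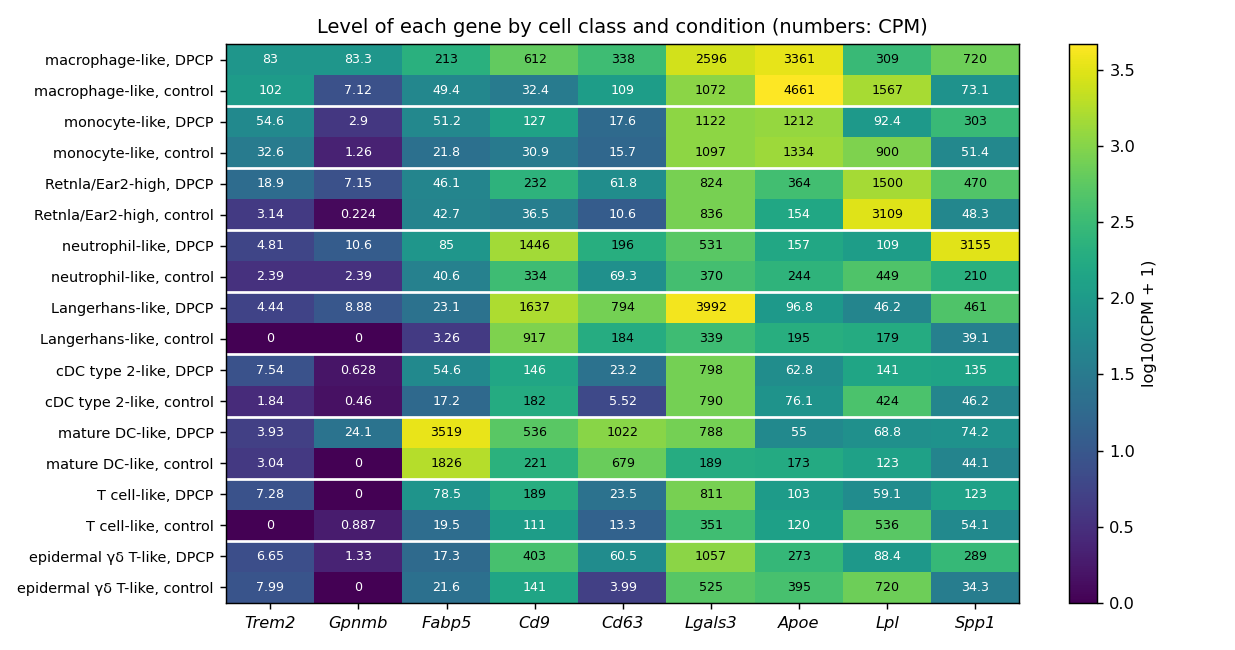
Level (CPM, printed in each cell and coloured on a log10 scale) of the 8 genes and Spp1 by cell class, with DPCP above control in each pair. Trem2 was highest in macrophage-like cells of both conditions (83.0 CPM in DPCP and 102 CPM in control cells), Fabp5 in mature dendritic cell-like cells and Lpl in control Retnla/Ear2-high phagocytes.

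Gpnmb, a membrane glycoprotein of lysosome-rich phagocytes and pigment cells, was low in all control classes and, among the 9 compared classes, highest in DPCP macrophage-like cells. Unassigned DPCP cells had a like level, 82.6 CPM. Gpnmb had 83.3 (74.5 to 92.9) CPM in DPCP macrophage-like cells, against 7.12 (4.96 to 9.91) CPM in control ones, a ratio of 11.7 (8.24 to 17.1). These intervals take UMIs as independent, but 18 of 354 DPCP cells held 294 of the 324 UMIs and 2 of 516 control cells 25 of 35. The ratio was 28.3 as a mean over cells, 78.8 in thinned cells and 2.31 with classes taken from clusters, all outside its interval. The share of macrophage-like cells with a Gpnmb UMI after thinning was 5.13% in DPCP and 0.195% in control skin. In mature dendritic cell-like cells, which carry the lymph node homing receptor Ccr7, it was 24.1 (17.8 to 31.8) CPM in DPCP skin and was not detected in control skin, a ratio of at least 5.27 when the control is set at 3 counts. The Retnla/Ear2-high phagocytes had 7.15 (4.63 to 10.6) CPM in DPCP skin, against 0.224 (0.0901 to 0.462) CPM in control skin. This DPCP level comes almost wholly from 1 of 364 cells, which held 22 of the 25 UMIs. Neutrophil-like cells had 10.6 (9.28 to 12.0) CPM in DPCP skin and 2.39 (0.0605 to 13.3) CPM, a single UMI, in control skin, so the ratio of 4.42 (0.786 to 175) is barely constrained. The macrophage-like level stood above the mature dendritic cell-like one in DPCP skin, while the neutrophil-like, Langerhans cell-like and Retnla/Ear2-high levels had overlapping intervals. Gpnmb was 0 CPM in DPCP T cell-like cells and 0.887 CPM, from 1 UMI, in control ones.

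Fabp5, which carries fatty acids through the cytosol and is also known from epidermis, was mainly a gene of mature dendritic cell-like cells here. They had 3519 (3438 to 3602) CPM in DPCP skin, against 1826 (1724 to 1932) CPM in control skin, and the 121 DPCP cells held 49.6% of all Fabp5 UMIs of the kept cells. In macrophage-like cells it was 213 (198 to 228) CPM in DPCP skin, against 49.4 (43.4 to 56.1) CPM in control skin, a ratio of 4.30 (3.72 to 4.98). The interval takes UMIs as independent, but 1 control cell held a large part of the 243 control UMIs. The ratio was 6.16 as a mean over cells, 5.49 in thinned cells and 6.33 with classes taken from clusters. It was 5.01 without the Langerhans cell-like cluster and 2.99 without cells holding at least 2 of Mmp12, Arg1 and Pdpn. All of these lay outside the interval. Neutrophil-like cells had 85.0 (81.3 to 88.8) CPM in DPCP skin and 40.6 (23.6 to 65.0) CPM in control skin, less far apart. The Retnla/Ear2-high phagocytes differed little, with 46.1 (39.2 to 53.8) CPM in DPCP skin, against 42.7 (40.4 to 45.1) CPM in control skin. The other compared classes lay between 3.26 and 78.5 CPM. Outside them, the 87 control group 2 innate lymphoid cell-like cells had 271 CPM of Fabp5, against 27.7 CPM in 33 DPCP ones, too few to compare.

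Cd9, a surface tetraspanin that organises membrane receptors, was carried mostly by neutrophil-like cells in number of molecules and was far higher in DPCP than in control macrophage-like cells. DPCP neutrophil-like cells had 1446 (1431 to 1462) CPM, against 334 (281 to 395) CPM in control ones, and held 70.0% of all Cd9 UMIs. The neutrophil-like cells of the conditions lay largely in different clusters, with 2892 of the 4837 DPCP cells in clusters 1, 4 and 7, which held 0 control cells, while 1720 DPCP cells and 106 of the 143 control cells were in cluster 0. Within cluster 0 Cd9 was 293 CPM in DPCP and 418 CPM in control cells, a ratio of 0.701 (0.582 to 0.852), so the higher level was not seen in the cluster that held most control cells, a split chosen after seeing the data. In macrophage-like cells it was 612 (588 to 637) CPM in DPCP skin, against 32.4 (27.5 to 37.8) CPM in control skin, a ratio of 18.9 (16.1 to 22.3), which was 1.98 with classes taken from clusters. Langerhans cell-like cells had 1637 (1563 to 1714) CPM in DPCP skin and 917 (843 to 996) CPM in control skin. Neutrophil RNA was more widespread in DPCP skin, where 9.89% of macrophage-like cells, against 0.969% in control skin, held over 19 UMIs of S100a8 and S100a9, which encode the main cytosolic proteins of neutrophils. With the macrophage-like cells that held this RNA left out, the Cd9 ratio of the class was 17.9. Cd9 was 189 CPM in DPCP and 111 CPM in control T cell-like cells, and the part of free neutrophil RNA in these levels was not tested.

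Cd63, a tetraspanin of late endosomes, lysosomes and granules, had ratios of DPCP over control above 1 in all 9 classes, with intervals that included 1 in monocyte-like and T cell-like cells, the T cell-like one on 44 UMIs. Langerhans cell-like cells had 794 (743 to 848) CPM in DPCP skin, against 184 (152 to 221) CPM in control skin, a ratio of 4.32 (3.55 to 5.30). Macrophage-like cells had 338 (319.6 to 356) CPM in DPCP skin and 109 (99.8 to 118) CPM in control skin. The highest level of any class was 1022 CPM in DPCP mature dendritic cell-like cells, against 679 CPM in control ones. Ratios ran from 1.12 in monocyte-like cells (interval 0.842 to 1.51) to 15.2 in epidermal γδ T cell-like cells, where the control level rests on 5 UMIs. Within single clusters the order could turn, with Cd63 ratios of 0.717 (0.609 to 0.844) in macrophage-like cells of cluster 9 and 0.560 (0.376 to 0.869) in neutrophil-like cells of cluster 0.

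Lgals3 encodes galectin-3, a lectin that binds galactosides and gathers at damaged lysosomes. It was highest in DPCP Langerhans cell-like cells, at 3992 (3876 to 4111) CPM, against 339 (294 to 388) CPM in control Langerhans cell-like cells, a ratio of 11.8 (10.3 to 13.6). Macrophage-like cells had 2596 (2546 to 2647) CPM in DPCP skin and 1072 (1043 to 1101) CPM in control skin, a ratio of 2.42 (2.34 to 2.50). With classes taken from clusters, which leaves clusters 16 and 18 described below out of the class, the log2 ratio of Lgals3 was -0.64. Mature dendritic cell-like cells had 788 CPM in DPCP skin, against 189 CPM in control skin. By contrast the monocyte-like, type 2 dendritic cell-like and Retnla/Ear2-high classes had ratios of 1.02, 1.01 and 0.985.

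Apoe, the apolipoprotein with which macrophages export cholesterol, had its highest level in macrophage-like cells and was lower there in DPCP skin. It stood at 3361 CPM in DPCP macrophage-like cells, against 4661 CPM in control ones, a ratio of 0.721 (0.706 to 0.737). With classes taken from clusters the log2 ratio was 0.67, in the other direction. That class was an unlike mix, with cluster 6 giving 742 of its 1001 control and 47 of its 242 DPCP cells. Among macrophage-like cells the Apoe ratio was 0.673 (0.656 to 0.690) within cluster 9 and 1.05 (0.964 to 1.14) within cluster 6. Monocyte-like cells, at 1212 CPM in DPCP skin and 1334 CPM in control skin, were closer to each other. The Retnla/Ear2-high phagocytes were the one compared class with a higher Apoe level in CPM in DPCP skin. They had 364 (344 to 385) CPM, against 154 (149 to 158) CPM in control skin, a ratio of 2.37 (2.23 to 2.52). T cell-like cells had 103 (85.7 to 122) CPM of Apoe in DPCP skin and 120 (100 to 142) CPM in control skin.

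Lpl, the lipase that frees fatty acids from lipoprotein triglycerides, was lower in CPM in DPCP skin in every class compared. In Langerhans cell-like cells this did not hold once each cell was thinned. In mature dendritic cell-like cells 13.3% of thinned DPCP and 7.55% of thinned control cells held an Lpl UMI, with overlapping intervals. The Retnla/Ear2-high phagocytes were the main source of Lpl, with 1500.3 CPM in DPCP skin, against 3109 CPM in control skin, and their control cells held 77.1% of all Lpl UMIs of both conditions. Over all kept cells Lpl was 209.7 CPM in DPCP skin and 2217 CPM in control skin, and these phagocytes were 4.80% of DPCP and 50.6% of control cells. Macrophage-like cells had 309 (292 to 327) CPM in DPCP skin, against 1567 (1532 to 1602) CPM in control skin, a ratio of 0.197 (0.185 to 0.210). The background was high in control skin. T cell-like cells, which should lack the gene, had 59.1 (46.3 to 74.3) CPM in DPCP skin and 536 (494 to 581) CPM in control skin, and 3.36% of DPCP and 15.9% of control T cell-like cells held an Lpl UMI after thinning. Unthinned, the shares were 44.5% in DPCP cells (median depth 8354 UMIs) and 42.1% in control cells (7397 UMIs). Below the control T cell-like level lay the control neutrophil-like (449 CPM), type 2 dendritic cell-like (424 CPM), Langerhans cell-like (179 CPM) and mature dendritic cell-like (123 CPM) levels. Epidermal γδ T cell-like cells lay above it, with 720 CPM in control skin and 88.4 CPM in DPCP skin. In macrophage-like cells the thinned shares were 20.8% in DPCP and 60.0% in control skin. Lpl in macrophage-like cells thus stood above the T cell-like level in both conditions, and the part of phagocyte RNA in it was not tested.

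**Figure D2:**
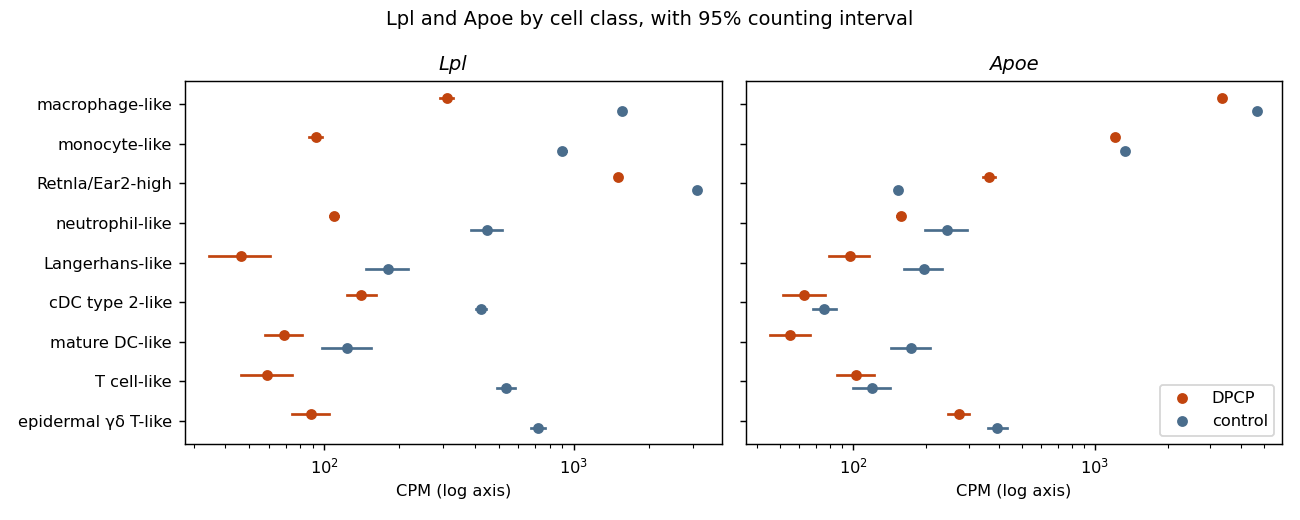
Levels of Lpl (left) and Apoe (right) in CPM on log axes in 9 cell classes, with DPCP above control in each pair and lines for 95% counting intervals. Lpl was lower in DPCP cells of every class, T cell-like cells included (59.1 CPM in DPCP and 536 CPM in control cells), while Apoe was higher in DPCP cells only among the Retnla/Ear2-high phagocytes (364 CPM in DPCP and 154 CPM in control cells).

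Counted at a 2-fold difference among genes with at least 50 UMIs in the 2 conditions of a class, 5 of the 8 genes were higher in DPCP macrophage-like cells (Gpnmb, Fabp5, Cd9, Cd63, Lgals3), where 6.72% of 9609 genes were. One of the 8, Lpl, was lower, against 3.75% of all genes. The median log2 ratio was 1.45 over the 8 genes and 0.05 over all genes. In Langerhans cell-like cells 5 of the 8 had enough UMIs, of which Cd63 and Lgals3 were higher and Apoe and Lpl lower, where 11.1% of genes were higher and 7.73% lower. Trem2, Gpnmb and Fabp5 were under the minimum there. In neutrophil-like cells 5 of 8 were higher (Trem2, Gpnmb, Fabp5, Cd9, Cd63) and Lpl was lower, where 15.3% of genes were higher and 16.4% lower. The Trem2 and Gpnmb ratios among these rest on 1 control UMI each. Within cluster 0, where most control neutrophil-like cells lay, 1 of 8 was higher, Fabp5, at 4.25 (2.15 to 9.88), and 0 were lower. TMM scaling would add 0.43 to every log2 ratio in this class, where the median of all genes was -0.29 and that of the 8 genes 1.04. The Retnla/Ear2-high phagocytes had 4 of 7 higher (Trem2, Cd9, Cd63, Apoe) and Lpl lower, where 5.66% of genes were higher and 3.42% lower. Monocyte-like cells had Fabp5 and Cd9 higher and Lpl lower of 7, where 5.40% of genes were higher and 4.44% lower. Type 2 dendritic cell-like cells had Fabp5 and Cd63 higher and Lpl lower of 6, where 3.79% of genes were higher and 4.46% lower. In mature dendritic cell-like cells Cd9 and Lgals3 were higher and Apoe lower of 6, where 11.4% of genes were higher and 3.36% lower. T cell-like cells had Fabp5 and Lgals3 higher and Lpl lower of 5, against 3.87% of genes higher and 3.38% lower. Epidermal γδ T cell-like cells had Cd9, Cd63 and Lgals3 higher and Lpl lower of 6, against 5.65% of genes higher and 3.12% lower. The Lpl calls in neutrophil-like, Langerhans cell-like and type 2 dendritic cell-like cells rest on control levels below that of control T cell-like cells. The Lpl call in T cell-like cells is itself on the level taken above as background. The one in epidermal γδ T cell-like cells rests on 720 CPM in control and 88.4 CPM in DPCP skin, and the part of phagocyte RNA in it was not tested. The Apoe calls in Langerhans cell-like and mature dendritic cell-like cells rest on DPCP levels below that of DPCP T cell-like cells, the first with overlapping intervals. All 8 genes were chosen as a list with earlier results known, so these counts are a description.

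**Figure D3:**
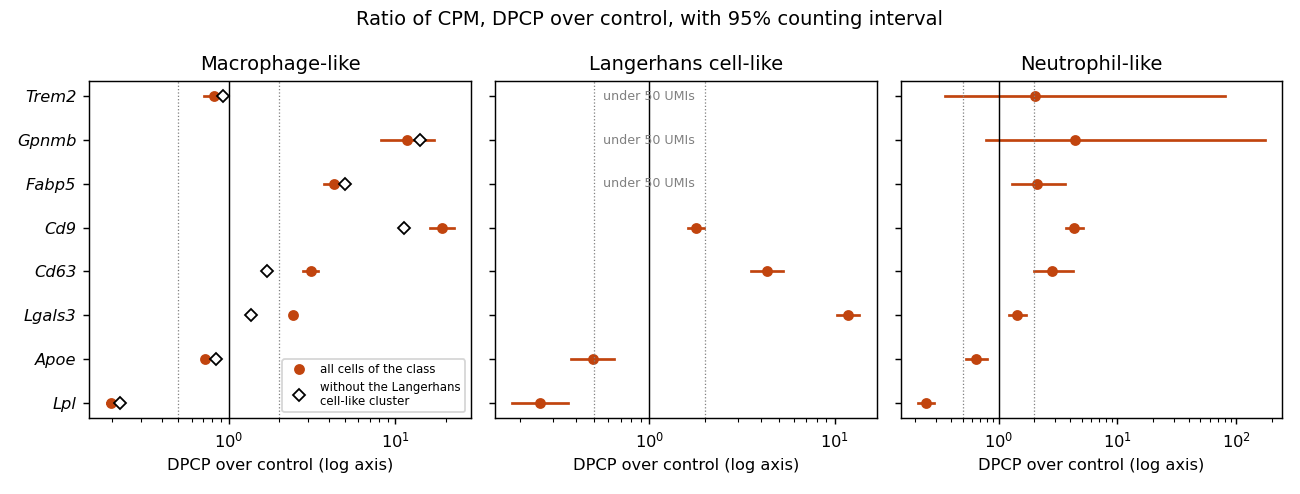
Ratio of CPM, DPCP over control, on a log axis for the 8 genes in macrophage-like, Langerhans cell-like and neutrophil-like cells; circles are the ratios, lines the 95% counting intervals, dotted lines 2-fold, and open diamonds macrophage-like cells without the Langerhans cell-like cluster. Without that cluster the macrophage-like ratios of Cd63 and Lgals3 were 1.69 and 1.36, under 2-fold, while those of Gpnmb, Fabp5 and Cd9 stayed above it.

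The 5 higher genes did not all have their largest share in the same cluster of macrophage-like cells. The DPCP cells with at least 2 Gpnmb UMIs, described below, were nonetheless higher in each of the others. Clusters made without the 8 genes and Spp1 divided most of the class into cluster 9, held by both conditions (164 DPCP and 174 control cells), cluster 6, mostly control (27 DPCP and 296 control cells), and 2 clusters that were almost all DPCP. One of these, cluster 18, had 57 macrophage-like DPCP cells and no control cell. The other was the Langerhans cell-like cluster 16, with 48 DPCP cells and 1 control cell gated as macrophage-like.

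Cluster 9 held the Trem2 and Apoe of the DPCP class. It carried 73.4% of the Trem2 UMIs, 83.6% of the Apoe UMIs and 73.2% of the Fabp5 UMIs of DPCP macrophage-like cells. Over all clusters, the 37 DPCP macrophage-like cells with at least 2 of Mmp12, Arg1 and Pdpn held 310 of 827 Fabp5 UMIs. Their Fabp5 level was 795 CPM, against 148 CPM in the other 317, a ratio of 5.38 (4.66 to 6.21). With them left out, the Fabp5 ratio of the class was 2.99. Within cluster 9 Trem2 was 120.4 (106 to 137) CPM in DPCP cells, against 108 (92.6 to 124) CPM in control cells, a ratio of 1.12 (0.920 to 1.36). Fabp5 was the gene with the largest ratio there, at 307 (283 to 333) CPM in DPCP cells and 28.9 (21.5 to 38.1) CPM in control cells, a ratio of 10.6 (7.96 to 14.5). Lgals3 and Cd63 showed no such difference, with ratios of 1.04 (0.959 to 1.13) and 0.717 (0.609 to 0.844). Gpnmb was 11.7 (7.40 to 17.5) CPM in DPCP cells, against 2.31 (0.630 to 5.92) CPM in control cells, and Cd9 was 74.7 (63.1 to 87.7) CPM in DPCP and 36.4 (28.0 to 46.6) CPM in control cells. The Gpnmb difference may rest on few cells. In the whole of cluster 9, all classes and both conditions included, 2 cells with at least 5 Gpnmb UMIs held 22 UMIs. Lpl had a ratio of 0.283 (0.262 to 0.305) and Apoe of 0.673 (0.656 to 0.690). In cluster 6, with 27 DPCP cells, Fabp5 and Lgals3 were instead lower in DPCP cells, with ratios of 0.241 (0.0493 to 0.716) and 0.455 (0.376 to 0.546), Trem2 had a ratio of 0.546 (0.270 to 0.991), and the Cd9 ratio of 0.478 (0.0566 to 1.80) had an interval that included 1. The control Fabp5 level of cluster 6 rests in large part on 1 cell, which held 20 Gpnmb UMIs. Of the 243 control Fabp5 UMIs of the class, 43 remained without it in cells with at least 2 Trem2 UMIs and 104 in the others. The cluster 6 ratio without that cell was not tested.

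Cluster 18 held the Gpnmb. It led in Mmp12, a macrophage elastase, and Arg1, an arginase of wound macrophages, and its 57 macrophage-like cells carried 79.3% of the Gpnmb UMIs of the DPCP class. Their Gpnmb level was 472 (416 to 533) CPM, their Cd9 level 1403 (1306 to 1507) CPM and their Lgals3 level 5248 (5057 to 5444) CPM. Trem2, at 75.3 (54.0 to 102) CPM, was lower than in DPCP cells of cluster 9, and Apoe, at 553 (492 to 619) CPM, was far lower. Spp1 was 1864 (1752 to 1983) CPM, with 36.2% of the Spp1 UMIs of the class. The whole cluster, with 113 DPCP cells of all classes, carried 65.1% of all DPCP Gpnmb UMIs.

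Cluster 16 held most of the Cd63, Cd9 and Lgals3. Its 48 macrophage-like DPCP cells carried 54.8%, 54.8% and 53.3% of the UMIs of these genes in the class, at 1155 (1072 to 1243), 2095 (1983 to 2212) and 8651 (8422 to 8885) CPM. Trem2 was 20.9 (11.1 to 35.7) CPM in them, and they held 94.4% of the UMIs of the Langerhans cell markers in the class. With these cells left out, the class ratios were 11.2 for Cd9, 14.0 for Gpnmb and 5.01 for Fabp5, and 1.36 for Lgals3 and 1.69 for Cd63, so 3 of the 8 genes were at least 2-fold higher. With classes taken from clusters, where the class is clusters 6 and 9, 2 of 8 were (Gpnmb and Fabp5) and Cd9 had a ratio of 1.98. In those clusters the DPCP over control ratio was 1.58 for Trem2 and 0.644 for Lgals3, both on the other side of 1 from the gated class. Cluster 6 gave 742 of the 1001 control and 47 of the 242 DPCP cells there, so these ratios compare unlike mixes of clusters 6 and 9. Without cluster 18 in place of cluster 16, the Gpnmb ratio was 2.81 and that of Cd9 14.9. The 2 alternatives that leave out a cluster were chosen after seeing the data.

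**Figure D4:**
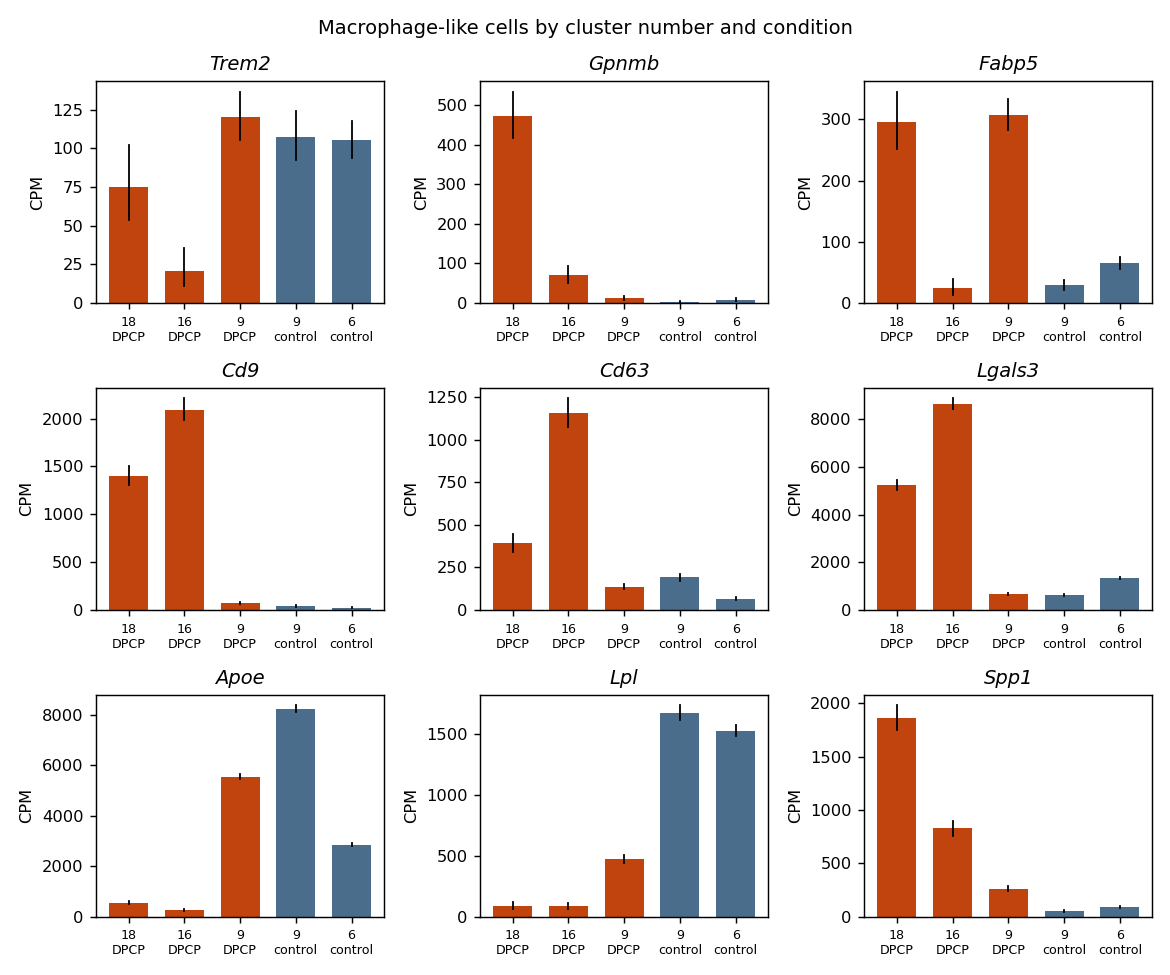
Levels (CPM, axes from 0) of the 8 genes and Spp1 in macrophage-like cells of clusters 18, 16 and 9 in DPCP skin (orange) and clusters 9 and 6 in control skin (blue); black lines are 95% counting intervals. Gpnmb peaked in cluster 18 (472 CPM), Cd9, Cd63 and Lgals3 in cluster 16, and Trem2, Apoe and Lpl were higher in DPCP cells of cluster 9 than in clusters 16 and 18.

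Gpnmb molecules came from few cells. Of 797 Gpnmb UMIs in DPCP cells, 671 lay in 40 cells with at least 5, against 25 of 53 UMIs in 2 control cells. Macrophage-like cells were 18 of the 40 and held 294 of the 324 UMIs of their class, with up to 57 in 1 cell. Trem2 was detected in 12 of these 18, and 10 of them expressed at least 2 of Mmp12, Arg1 and Pdpn. Neutrophil-like cells were 13 of the 40 and held 226 of the 246 UMIs of their class, in which 0.620% of cells held any. None of the 13 held Trem2, and 8 of them were Spp1-high as defined below. Their neutrophil marker level was 53774 CPM, against 94343 CPM in the other DPCP neutrophil-like cells, and their macrophage marker level 592 CPM, against 351 CPM in those others. The rise was not particular to macrophage markers. Mature dendritic cell markers were at 251 CPM, against 104 CPM in those others, and T cell markers at 137 CPM, against 77.8 CPM. Monocyte markers were lower, at 843 CPM, against 1576 CPM. Whether some of these 13 droplets held a macrophage beside a neutrophil was not tested. By cluster, 22 of the 40 cells were in cluster 18 and held 475 UMIs.

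Co-detection with Spp1 was read in DPCP cells with at least 10 Spp1 UMIs, called Spp1-high, against the other DPCP cells of the class, with Spp1 left out of the totals. Spp1 itself was 720.2 (694 to 747) CPM in DPCP and 73.1 (65.7 to 81.0) CPM in control macrophage-like cells. DPCP neutrophil-like cells had 3155 (3132 to 3178) CPM and held 83.4% of all Spp1 UMIs, while DPCP macrophage-like cells held 3.18%. Among macrophage-like cells 36 were Spp1-high and 318 were not, at median depths of 9631.5 UMIs in Spp1-high cells and 9901.5 UMIs in the others. Gpnmb was 396 (338 to 460.1) CPM in Spp1-high cells, against 45.1 (38.3 to 52.7) CPM in the others, a ratio of 8.78 (7.02 to 11.0), and 51.9% of the Gpnmb UMIs of the class were in the 36 cells. Cd9 was 1142 (1043 to 1248) CPM in Spp1-high cells and 547 (523 to 573) CPM in the others, a ratio of 2.09 (1.88 to 2.31). These 2 genes of 8 passed 2-fold, where 3.15% of 7849 genes did, and Lpl, at 0.252 (0.175 to 0.350), was the one lower, against 7.31% of genes. Lgals3, at 1.99 (1.89 to 2.09), and Cd63, at 1.61 (1.39 to 1.87), lay below 2-fold, and Fabp5, at 1.05 (0.834 to 1.30), had an interval that included 1. Without the Langerhans cell-like cluster these ratios were 14.6 for Gpnmb, 2.62 for Lgals3 and 2.16 for Cd63, and without cells that held neutrophil RNA 14.8, 2.77 and 1.92. Trem2 had 61.2 (40.0 to 89.7) CPM in Spp1-high cells and 85.8 (76.3 to 96.1) CPM in the others, a ratio of 0.714 (0.458 to 1.07), and Apoe a ratio of 0.887 (0.837 to 0.940). The Gpnmb contrast rests on cluster 18: without its cells the log2 ratio of Gpnmb between Spp1-high and other macrophage-like cells was -1.31.

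A Spp1 UMI in a cell is not proof of expression, since 10.1% of thinned DPCP T cell-like and 15.5% of epidermal γδ T cell-like cells held one, against 22.5% of the macrophage-like cells of DPCP skin. Before thinning a median T cell-like cell had 8354 UMIs, an epidermal γδ T cell-like cell 7921 and a macrophage-like cell 9901.5. Gpnmb and Cd9 were detected more often in macrophage-like cells with such a UMI, and the part of free Spp1 in this was not tested. After thinning to 1000 UMIs, Gpnmb was detected in 12.7% of 79 DPCP macrophage-like cells with a Spp1 UMI, against 2.94% of 272 without. Cd9 was detected in 48.1% of cells with Spp1 and 23.9% of cells without, Trem2 in 6.33% of cells with Spp1 and 9.56% without, and Apoe in 49.4% of cells with Spp1 and 65.8% without. The intervals of the Trem2 shares overlapped. Unthinned, Gpnmb was detected in 13.7% of 219 cells with Spp1, against 4.44% of 135 cells without.

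Langerhans cell-like cells showed another order. Only 10 of 68 DPCP cells were Spp1-high, and 0 of the 5 measurable genes were 2-fold higher in them, where 3.13% of genes were. Cd63 was 389 (302 to 493) CPM in Spp1-high cells and 869 (811 to 930.5) CPM in the others, a ratio of 0.448 (0.344 to 0.574), and was the one lower gene, against 6.60% of all genes. Lgals3 had a ratio of 0.502 (0.451 to 0.558), just short of 2-fold lower. In thinned cells Lgals3 was detected in 46.2% of 13 with a Spp1 UMI, against 83.6% of 55 without, while Cd9 was detected in 100% of cells with Spp1 and 76.4% without. All of this rests on few cells of 1 tagged sample.

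In neutrophil-like DPCP cells, 1240 were Spp1-high and 3597 were not. Gpnmb alone passed 2-fold, with 25.8 (22.3 to 29.7) CPM in Spp1-high cells and 3.20 (2.37 to 4.22) CPM in the others, a ratio of 8.06 (5.88 to 11.2), where 3.54% of genes did, and 8 of the 1240 Spp1-high cells held 187 of their 196 Gpnmb UMIs. The interval takes these UMIs as independent, and in thinned cells 0 genes passed 2-fold. Of the 8 genes 0 were 2-fold lower, against 4%. Cd9 had a ratio of 1.94 (1.90 to 1.98) and Cd63 of 1.54 (1.45 to 1.63). By the number of Spp1 UMIs in the cell, Cd9 was 853 CPM in cells with none, 1241 with 1 to 4, 1936 with 5 to 9, 2064 with 10 to 29 and 2208 with 30 or more. Cd9 thus stood higher in each step up in Spp1. The steps also mix clusters: the 1720 DPCP cells of cluster 0 had 93.3 CPM of Spp1 and 293 CPM of Cd9. The whole DPCP class had 3155 CPM of Spp1 and 1446 CPM of Cd9, and whether the steps hold within a cluster was not tested. Cd63 was 144, 177, 253, 257 and 258 CPM over the same steps and was level from the 5 to 9 step on. Gpnmb stayed between 1.99 and 4.08 CPM up to 29 Spp1 UMIs and was 39.5 CPM in the top step, where 7 of 696 cells held 177 of 184 UMIs. Depth moved with the steps, with median UMIs per cell of 3540 in the lowest and 4986.5 in the highest. In cells thinned to equal depth Cd9 was still detected in 79.5% of 1921 cells with a Spp1 UMI, against 47.6% of 2815 without.

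**Figure D5:**
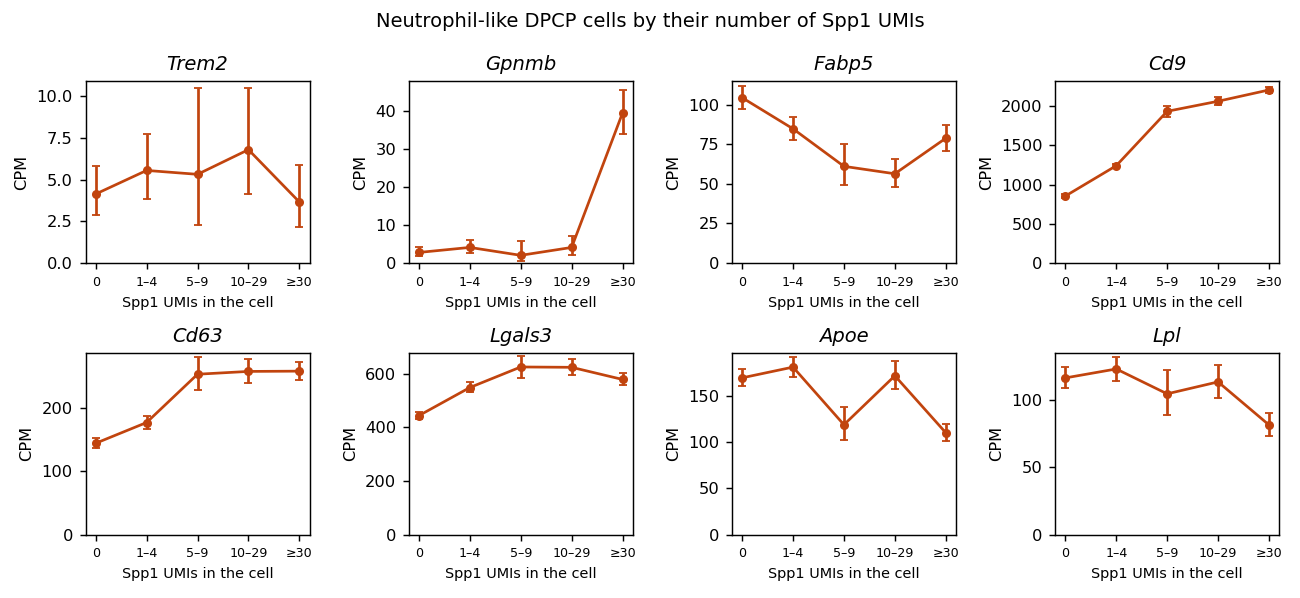
Levels (CPM, axes from 0) of the 8 genes in neutrophil-like DPCP cells grouped by the number of Spp1 UMIs in the cell, with 95% counting intervals. Cd9 was higher at each step (853 CPM at 0 and 2208 CPM at 30 or more Spp1 UMIs), and the Gpnmb level of the top step (39.5 CPM) comes from few cells, 7 of 696 holding 177 of its 184 UMIs.

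The 2 lead genes marked different neighbours among macrophage-like cells. The 27 DPCP cells with at least 2 Gpnmb UMIs, against the other 327, had ratios of 4.10 (3.91 to 4.29) for Lgals3, 3.68 (3.33 to 4.05) for Cd9 and 3.37 (2.83 to 3.99) for Fabp5, and of 0.268 (0.236 to 0.303) for Apoe and 0.222 (0.135 to 0.344) for Lpl. Cd63 had a ratio of 2.38 (2.04 to 2.77) and Trem2 itself of 1.80 (1.25 to 2.52) in them. The 72 DPCP cells with at least 2 Trem2 UMIs, against the other 282, had more Apoe, at 1.72 (1.66 to 1.79), and less Cd9, Lgals3 and Spp1, at 0.566 (0.506 to 0.631), 0.644 (0.612 to 0.678) and 0.478 (0.429 to 0.532). Gpnmb, at 0.835 (0.633 to 1.09), had an interval that included 1. In control skin the 101 cells with at least 2 Trem2 UMIs, against the other 415, had ratios of 6.25 (2.90 to 14.6) for Gpnmb and 3.34 (2.57 to 4.35) for Fabp5, but both rest on 1 cell with 20 Gpnmb UMIs. Without it, a choice made after seeing the data, they were 1.27 (0.341 to 4.08) and 1.05 (0.719 to 1.51). Cells picked for Trem2 were also deeper, with a median of 12269 UMIs in DPCP cells with at least 2 Trem2 UMIs and 9357 UMIs in the others, while those picked for Gpnmb were not, at 9661 UMIs and 9953 UMIs in the others. CPM corrects for depth only in the totals.

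Other genes of the same pathways lay mostly within 2-fold in macrophage-like cells, and their lists, like the 8 genes, were drawn up with earlier results known. Over all genes 6.72% were 2-fold higher and 3.75% lower, so counts of 0 or 1 in a list lie near that background. Of 9 genes of Trem2 signalling (Tyrobp, Hcst, Syk, Plcg2 and others), 0 were 2-fold higher and 0 lower, with a median log2 ratio of -0.0015. Tyrobp was 1241 CPM in DPCP and 1248 CPM in control cells. Of 7 measured lipid uptake genes 0 were higher and 1 lower, Axl, a receptor for dying cells, with a ratio of 0.229 (0.192 to 0.272). Of 11 lipid storage and efflux genes 1 was lower, Lipa, the lysosomal acid lipase, at 0.487 (0.434 to 0.545). Among 7 lipid-sensing regulators Nr1h3, the liver X receptor alpha, had a ratio of 2.16 (1.54 to 3.04) and Pparg, the fatty acid receptor, of 0.231 (0.192 to 0.276). Of 14 lysosomal genes 2 were higher, Ctsl, a cathepsin, at 6.22 (5.73 to 6.76) and Atp6v0d2, a proton pump subunit, at 4.24 (2.76 to 6.72). Of 12 other lipid- and damage-associated macrophage genes, 3 were higher (Spp1 9.86 (8.83 to 11.0), Csf1 6.58 (4.75 to 9.30) and Ctsl) and 2 lower (Axl and Igf1 0.441 (0.368 to 0.525)). Among relatives of the 8 genes, 4 of 12 were higher, Trem1 at 6.32 (3.83 to 11.0), Trem3 at 4.65 (2.77 to 8.19), Fabp4 at 2.81 (1.57 to 5.20) and Cd82, and 2 were lower, Lgals3bp and Lgals9.

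Over the 20 groups of class and condition with at least 50 cells, the unassigned cells included, the genes with levels most like Trem2 among 10100 were Msr1 (Pearson r of log2 CPM 0.898), Etv1, Ms4a4a, Nipa2 and Nupr1. Apoe was close to Trem2 at 0.831, while Gpnmb, at 0.547, and Cd9, at -0.186, lay lower. For Gpnmb they were Cxcl1 (0.845), Fth1, Ctsl, Atp6v0c and Procr, and Spp1 was at 0.656. Groups of 1 condition share their library, depth and background RNA, so these values are a description.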

How the data were processed

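CD45+ skin cells of 1 DPCP and 1 control sample, tagged and pooled, were measured. The authors deposited raw UMI counts per gene and barcode, made with Cell Ranger (7.0.0 per the file headers, 6.1.1 per the submitters' processing notes, which also name Seurat 4.0.1) on mm10. The condition of a barcode was read from its suffix through the deposited aggregation and configuration tables. Totals were 53748585 UMIs over 7866 DPCP barcodes and 54397154 UMIs over 6280 control barcodes.

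Barcodes were dropped below 200 genes or above 10% mitochondrial UMIs. Scrublet called 0 DPCP and 3 control cells doublets, so it was judged not to have worked and doublets may remain. Classes came from gates on marker lists (at least 3 markers detected, each scaled by its 99.5th percentile). UMIs were summed per class and condition and divided by the total (CPM). Intervals are exact Poisson for levels, conditional binomial for ratios and Clopper-Pearson for shares, and cover counting error only. The ratio intervals were tried on counts simulated as independent Poisson draws, the model they assume. That trial cannot show how they behave where the UMIs of a gene lie in few cells. Ratios against 0 use 3 counts. A gene counted as higher or lower at 2-fold with at least 50 UMIs. Leiden clusters (resolution 1, 2000 variable genes, 30 components, 15 neighbours) were built without the 8 genes and Spp1. Tools were Python 3.11.15, numpy 2.4.6, scipy 1.17.1, scanpy 1.11.5, leidenalg 0.10.2 and, for TMM, edgeR 4.0.16 in R 4.3.3.

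The 8 genes and the marker and pathway lists were chosen with earlier results of these data known. The text names the 8 genes, Spp1, in each pathway list at most 3 genes at either end past 2-fold in macrophage-like cells with an interval excluding 1, and the 5 genes most like Trem2 and Gpnmb among those with at least 500 UMIs. Of 77 pathway genes, 1 was not analysed here, and 1 that the naming rule picks is not reported here. Alternatives were other filters, gates, doublet removal, classes, scalings, thinning, fold and UMI limits, single clusters and single cells.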

Additional observations from a re-analysis of the deposited data

Results flagged for a closer look

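Apoe levels in CPM differed in opposite directions between classes. The DPCP over control ratio of Apoe was 2.37 in the Retnla/Ear2-high phagocytes, against 0.495 in Langerhans cell-like cells and 0.317 in mature dendritic cell-like cells. These lower ratios rest on low levels, beside 103 CPM in DPCP and 120 CPM in control T cell-like cells. Langerhans cell-like cells had 96.8 CPM in DPCP and 195 CPM in control skin, mature dendritic cell-like cells 55.0 CPM and 173 CPM. Unthinned, 34.7% of DPCP and 30.2% of control mature dendritic cell-like cells held an Apoe UMI, against 61.8% and 72.2% of Langerhans cell-like cells. The part of background RNA was not tested. The difference between classes was not tested because each condition had 1 sample.

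Cells that no gate assigned, 351 in DPCP and 352 in control skin, entered no comparison, yet carried several of the genes. Gpnmb was 82.6 CPM in DPCP unassigned cells, against 1.39 CPM in control ones, and Trem2 was 34.9 CPM in DPCP and 6.24 CPM in control ones. Fabp5 was 137 CPM in DPCP and 29.1 CPM in control unassigned cells. Cd9 stood at 1279 CPM in DPCP and 107 CPM in control ones, and Cd63 at 273 CPM in DPCP and 21.5 CPM in control ones. Lgals3 was 2297 CPM in DPCP and 669.9 CPM in control ones. Of the DPCP unassigned cells, 26 were in cluster 18, and 27.4% of DPCP unassigned cells, against 0.284% of control ones, held neutrophil RNA, whose part in these levels was not tested.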

How the results depend on the processing

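No paired analysis was possible because each condition had 1 tagged sample, and none of the settings tried stands in for a replicate. Over 42 ratios and 18 settings, 393 of 537 values stayed within the interval of the reported value, 134 moved out of it, and 10 whose reported ratio was past 2-fold changed sign. Over all 567 log2 ratios 30 changed sign, 20 of them from a reported ratio under 2-fold, among them Apoe in macrophage-like cells, -0.47 as reported and 0.67 with classes from clusters. TMM scaling shifted log2 ratios of DPCP over control by 0.43 in neutrophil-like cells. The 5 genes higher in macrophage-like cells were 2 with classes from clusters and 3 without the Langerhans cell-like cluster. The log2 ratio of Trem2 there, -0.29, was 0.66 with classes from clusters and 0.10 in thinned cells. That of Gpnmb, 3.55, was 1.21 with classes from clusters, 2.74 without cells that held at least 2 of Mmp12, Arg1 and Pdpn, 1.49 without cluster 18, 4.82 as a mean over cells and 6.30 in thinned cells. The 2 genes higher in Spp1-high macrophage-like cells were 1 with classes from clusters, 1 without cluster 18 and 1 at 5 Spp1 UMIs, and 4 without the Langerhans cell-like cluster, at a fold of 1.5, as a mean over cells and in thinned cells. In Langerhans cell-like cells the 2 higher genes were 4 with classes from clusters. The 2 lower ones were 1 under the stricter cell filter, no cell filter, removal of the 5% highest doublet scores, the stricter gate, removal of cells with neutrophil RNA and a minimum of 80% own tag, and 0 with classes from clusters and in thinned cells. With no UMI minimum, 2 genes in place of 0 were higher in Spp1-high Langerhans cell-like cells. In neutrophil-like cells the 5 higher genes were 3 as a mean over cells and 1 in cluster 0 alone, the 1 lower was 0 with classes from clusters and in cluster 0 alone, and 2 at a fold of 1.5, and the 1 higher in Spp1-high cells was 3 at a fold of 1.5, 0 in thinned cells and 2 at 5 Spp1 UMIs. Among ratios past 2-fold, reversed log2 values were -0.64 for Lgals3 in macrophage-like cells with classes from clusters, 0.15 for Lpl in thinned Langerhans cell-like cells, and -1.31 for Gpnmb in Spp1-high macrophage-like cells without cluster 18. Trem2 in neutrophil-like cells, with 1 control UMI, was -0.50 with classes from clusters, -0.26 as a mean over cells, -1.92 in thinned cells and -0.74 in cluster 0 alone, where Gpnmb was -3.64, Cd9 -0.51 and Cd63 -0.84. The causes were not tested. Depth limits Trem2, Gpnmb and Fabp5 in Langerhans cell-like cells and every control value in neutrophil-like cells.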

Other observations

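Mature dendritic cell-like cells, high in Fabp5 and Cd63 in both conditions, had 3.93 CPM of Trem2 in DPCP skin and 3.04 CPM in control skin. Their Gpnmb in DPCP skin came mostly from 2 cells, which held 37 of 49 UMIs. Type 2 dendritic cell-like cells had 54.6 CPM of Fabp5 in DPCP skin, against 17.2 CPM in control skin, and 23.2 CPM of Cd63 in DPCP skin, against 5.52 CPM in control skin.

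The control macrophage-like cells were themselves uneven. Cluster 6, with 296 of the 516, had 1358 (1316 to 1401) CPM of Lgals3 and 2855 (2794 to 2917) CPM of Apoe, while cluster 9, with 174, had 628 (592 to 667) CPM of Lgals3 and 8248 (8114 to 8385) CPM of Apoe. Trem2 was 105 (94.0 to 118) CPM in the one and 108 (92.6 to 124) CPM in the other, with intervals that overlapped. Only 27 DPCP macrophage-like cells lay in cluster 6.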
